A study of Mus musculus with 3 samples.

Results

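A set of 8 G-protein-coupled receptor genes whose products sense metabolites or lipids was followed in mouse macrophages given the fat-cell hormone adiponectin: Hcar2, Gpr84, Sucnr1, Gpr35, Gpr132, Gpr18, Gpr183 and S1pr1. They were chosen by symbol with earlier ratios of these same arrays known, so their adiponectin over untreated values below are a description and carry no test. All 8 were on the array, with 11 probes, among 20660 genes that a probe could be tied to. Of the 8, 7 passed the filter on dim probes, under which a probe must be well above background, by the scanner software's own flag, in at least 3 of the 6 channel readings. Sucnr1 did not pass. Below, a gene on the array with no probe that passed this filter is called not measured.

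Each RNA came from bone marrow-derived macrophages of C57BL/6J mice, matured in 30% L929-conditioned medium, a source of the growth factor CSF-1 made by a mouse fibroblast line, and then kept in 0.1% serum. The treated cells received adiponectin at 12 µg/ml for 18 h and the control cells received none, and both groups are labelled WT (wild type). Each of 3 2-colour arrays held 1 treated and 1 untreated RNA, with Cy3 as the treated dye on replicates 1 and 3 and Cy5 on replicate 2. The labels call the arrays biological replicates but do not say whether the cells came from separate animals, so p-values measure the spread between these arrays.

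Receptors of this kind sit in the plasma membrane and pass the binding of a small ligand on to a heterotrimeric G protein. Hcar2, Gpr84, Sucnr1, Gpr35, Gpr183 and S1pr1 are known to couple to inhibitory G proteins, which lower cyclic AMP. In myeloid cells, Hcar2, Gpr84 and Sucnr1 respond to intermediates of energy metabolism, whereas Gpr183 and S1pr1 are best known for guiding cell movement along gradients of oxysterols and of sphingosine 1-phosphate. As the arrays measured bulk RNA, fewer cells that express a gene and less RNA per cell cannot be told apart.

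All 3 arrays were on 1 slide scanned once, and no spot was saturated. Treated channels had 43.9% to 47.5% of probes well above background and untreated channels 53.4% to 54.3%. Among 13179 tested genes, limma with Benjamini-Hochberg adjustment called 3229 higher (24.5%) and 6074 lower (46.1%). The median ratio of the tested genes was -0.17 on the log2 scale, and after centring each array on that median the calls were 4638 higher and 4835 lower. Under median centring in each array, without loess, limma called 0 genes in either direction (216 higher and 5098 lower at an unadjusted p under 0.05), so every call below rests on loess. Of 7 macrophage markers on the array all were well above background in all 6 readings, and 6 of them fell, while Cd14, a coreceptor for bacterial lipopolysaccharide, rose by 0.97 ± 0.14 (log2, moderated SE, 3 arrays, limma adjusted p = 0.000253). The summed level of the macrophage list, as normalised intensity, was 154636 to 191442 in treated and 309456 to 336121 in untreated samples. Of 7 neutrophil markers all were above background in every reading, 3 rose and 3 fell, and their summed level was 26556 to 41628 in treated and 25145 to 28962 in untreated samples. Of the T-cell markers, Cd3g, Cd3d and Cd8a were above background in no reading and the other 4 in all 6. Of these 4, Cd3e rose by 0.96 ± 0.090 (limma adjusted p = 2.24e-05) and Lck by 0.89 ± 0.092 (3.77e-05). Cd4 (-0.12 ± 0.084, limma adjusted p = 0.232) and Cd5 (0.11 ± 0.095, 0.315) did not pass. The summed level of the 7 T-cell markers on the array was 2931 to 3208 in treated and 2495 to 2767 in untreated samples. Of the B-cell markers, Ms4a1 and Blk were above background in no reading, and the summed level of the 6 was 715 to 765 in treated and 1541 to 1620 in untreated samples. Summed levels of dendritic-cell markers were 44015 to 49239 in treated and 35299 to 41623 in untreated samples, with Xcr1 and Clec9a above background in no reading. Those of endothelial markers were 4492 to 6145 in treated and 2403 to 2825 in untreated samples, with Tek and Emcn in no reading, and those of mast-cell markers 897 to 1330 in treated and 587 to 704 in untreated samples, with 4 of 5 in no reading. NK-cell and erythroid markers, each with 4 of 5 in no reading, summed to 335 to 365 and 316 to 325 in treated and 339 to 354 and 318 to 327 in untreated samples, and fibroblast markers to 610 to 678 in treated and 493 to 539 in untreated samples, with Pdgfra and Lum in no reading. Several sums rest mainly on 1 gene. Siglech of the dendritic-cell list did not pass (0.24 ± 0.099, limma adjusted p = 0.0546), with -0.21 from another probe. Of the 4 measured genes of that list 1 rose and 0 fell. The one that rose was Zbtb46, by 1.51 ± 0.087 (limma adjusted p = 1.40e-06). Kdr of the endothelial list rose by 1.07 ± 0.095 (limma adjusted p = 1.56e-05), with -0.12 from another probe. Cd79b of the B-cell list fell by 1.69 ± 0.084 on the log2 scale (limma adjusted p = 6.66e-07). Tpsb2 of the mast-cell list rose by 1.05 ± 0.19 (limma adjusted p = 0.00122). Of 3 measured fibroblast markers 2 rose and 0 fell. The part of these cell types in the values below was not tested.

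Levels below are log2 normalised intensities of a gene's brightest probe, comparable between samples of the same probe and not between genes. Ratios are log2 of adiponectin over untreated on the same array. Of the 7 measured receptors, the fit across all genes put 3 higher, against 24.5% of all tested genes, and 3 lower, against 46.1%; these are counts of genes chosen on this contrast and nothing is read from them. The 3 treated levels lay above the 3 untreated levels for Hcar2, Gpr84 and Gpr132, which held for 26.8% of tested genes, and below them for Gpr35, Gpr183 and S1pr1, which held for 48.8%. A dye coefficient, which does not use the adiponectin contrast, was tested for each of the 7 in a fit that leaves 1 residual degree of freedom. None passed: limma adjusted p-values lay between 0.302 for Hcar2 and 0.973 for Gpr183, while 0.341% of all tested genes were called. At an unadjusted p under 0.05, 2 of the 7 passed. The share of all tested genes at that unadjusted threshold is not given here, so nothing is read from this count.

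**Figure D1:**
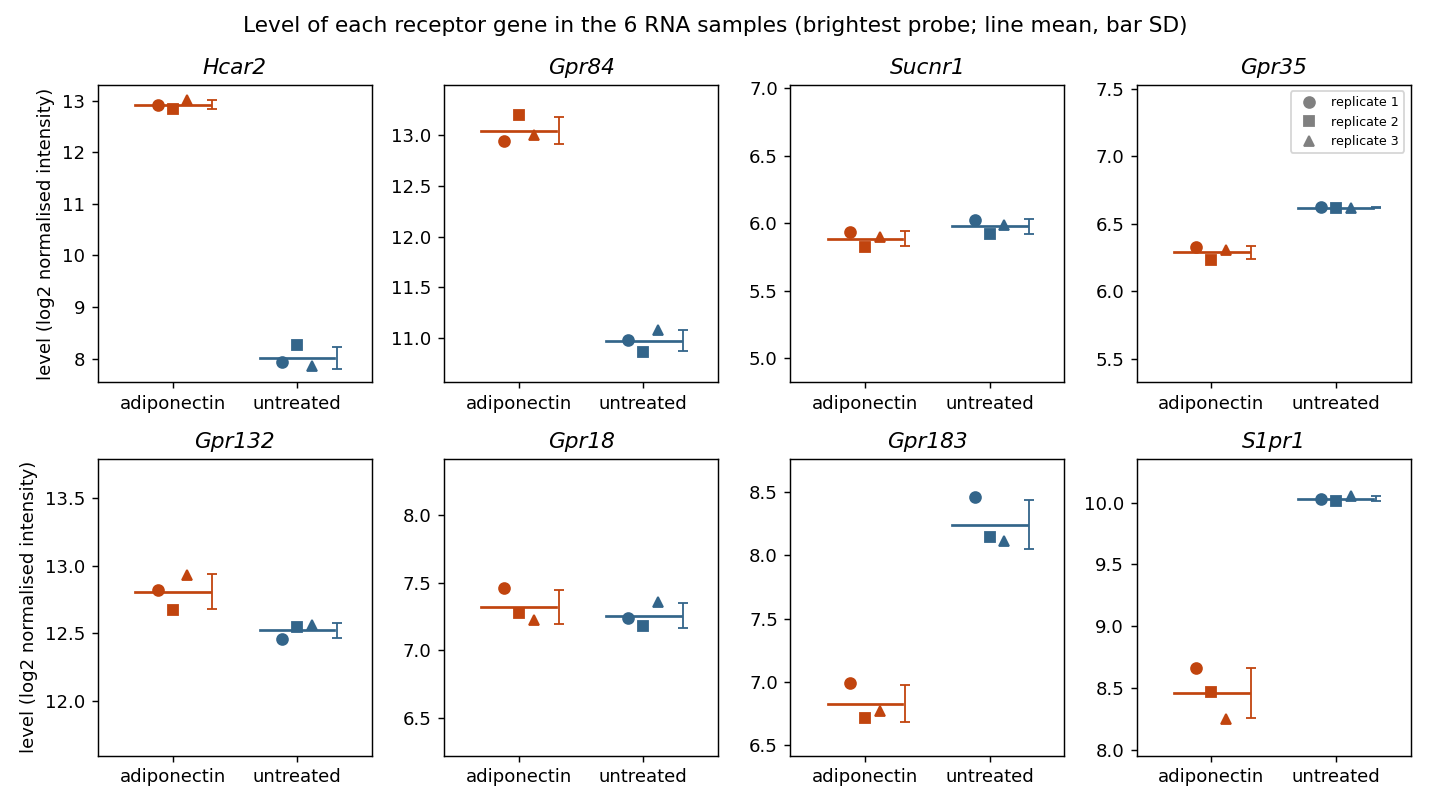
Level of each receptor gene (vertical axis, log2 normalised intensity of the brightest probe, an own range for each panel) in adiponectin-treated and untreated samples. Points are the 3 samples of a group, lines the means and bars the SD; treated samples lie above untreated ones for Hcar2, Gpr84 and Gpr132 and below them for Gpr35, Gpr183 and S1pr1.

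Hcar2, the receptor for niacin and the ketone body beta-hydroxybutyrate, had the highest ratio of the 8. Its level was 12.91, 12.83 and 13.00 in treated samples on replicates 1, 2 and 3, against 7.94, 8.26 and 7.85 in untreated samples. Every treated sample was far above every untreated one, and the treated samples were close to each other. The ratios were 4.97, 4.57 and 5.15, with a mean of 4.90 ± 0.30 (SD, n = 3), or 29.8-fold, the 13th highest of 13179 tested genes. Replicate 2, the array with swapped dyes, was the lowest of the 3. A second, dimmer probe for the same transcript read 9.63, 9.70 and 9.81 in treated samples, against 7.15, 7.12 and 7.24 in untreated samples. Its mean ratio of 2.55 ± 0.055 (SD, n = 3) had the same direction but was 5.84-fold, and the mean over both probes was 3.72 on the log2 scale. The size of the Hcar2 difference therefore depends on the probe, while both probes were well above background in all 6 readings.

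Gpr84, a receptor for medium-chain fatty acids, was at 12.94, 13.20 and 13.00 in treated samples, against 10.97, 10.86 and 11.08 in untreated samples. The groups were separate, and the gene was already far above background without adiponectin. Ratios of 1.97, 2.33 and 1.92 gave a mean of 2.07 ± 0.23 (SD, n = 3), or 4.21-fold. Under median centring, without loess, the mean was 0.92.

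Sucnr1, the succinate receptor, was not well above background in any sample. Its probe read 5.93, 5.82 and 5.90 in treated samples, against 6.02, 5.92 and 5.98 in untreated samples, with overlapping groups. These are readings at background and no fold is given.

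Gpr35, for which kynurenic acid has been proposed as a ligand, was well above background in all 3 untreated samples and in no treated one. The brightest of its 3 probes read 6.33, 6.24 and 6.31 in treated samples, against 6.62, 6.62 and 6.62 in untreated samples. The groups did not overlap, but all readings lay close to the lowest signals that count as well above background. As processed here, the level was 1.26-fold lower in treated samples. This is the ratio of the readings themselves and not a lower bound. The treated readings lay above the lowest signal counted as well above background on each array. The mean ratio depended on how background was handled, at -0.33 as reported, -0.98 at offset 0 of the normexp correction and -1.41 by the log ratio of the scanner software. After centring on the tested genes it was -0.16. The other probes, too dim for the filter, had mean ratios of -0.07 and -0.01 with overlapping groups.

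Gpr132, for which lysophospholipids and oxidised fatty acids have been proposed as ligands, was bright in both groups. Its level was 12.82, 12.67 and 12.93 in treated samples, against 12.46, 12.55 and 12.56 in untreated samples. The groups did not overlap but came within about the spread of the treated samples. Ratios of 0.36, 0.13 and 0.37 gave a mean of 0.29 ± 0.14 (SD, n = 3), or 1.22-fold, which was -0.85 under median centring.

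Gpr18, for which the lipid amide N-arachidonyl glycine has been proposed as a ligand, showed no separation of the groups. Its level was 7.46, 7.27 and 7.22 in treated samples, against 7.24, 7.18 and 7.36 in untreated samples. Its ratios of 0.22, 0.10 and -0.13 differed in sign between arrays, and their mean of 0.06 ± 0.18 (SD, n = 3) was smaller than their spread. That mean was -0.02 without replicate 1 and -0.51 under median centring.

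Gpr183, also called EBI2, the receptor for dihydroxylated oxysterols, was at 6.99, 6.72 and 6.77 in treated samples, against 8.46, 8.14 and 8.12 in untreated samples. All treated samples were below all untreated ones, and 2 of the 3 treated readings were well above background. Ratios of -1.47, -1.42 and -1.35 gave a mean of -1.41 ± 0.062 (SD, n = 3), which is 2.66-fold lower. The mean was -2.31 at offset 0 of that correction and -2.76 by the scanner's log ratio. Gpr18 and Gpr183 start 49.3 kb apart on the same strand of chromosome 14 in RefSeq's GRCm38.p6, and only Gpr183 of this pair had groups that did not overlap; the difference between them was not tested.

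S1pr1, a receptor for sphingosine 1-phosphate, was at 8.66, 8.46 and 8.25 in treated samples, against 10.03, 10.01 and 10.06 in untreated samples. The groups were separate, and the untreated samples were nearly identical while the treated ones spread more. Ratios of -1.37, -1.55 and -1.81 gave a mean of -1.57 ± 0.22 (SD, n = 3), which is 2.98-fold lower. This was the lowest mean of the 8 as processed here, but Gpr183 was lower than S1pr1 at offset 0 (-2.31 against -1.65), without background correction (-1.64 against -1.61), by the scanner's log ratio (-2.76 against -1.66) and in the authors' deposited table (-1.82 against -1.64). Under median centring, without loess, the mean was -2.68.

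**Figure D2:**
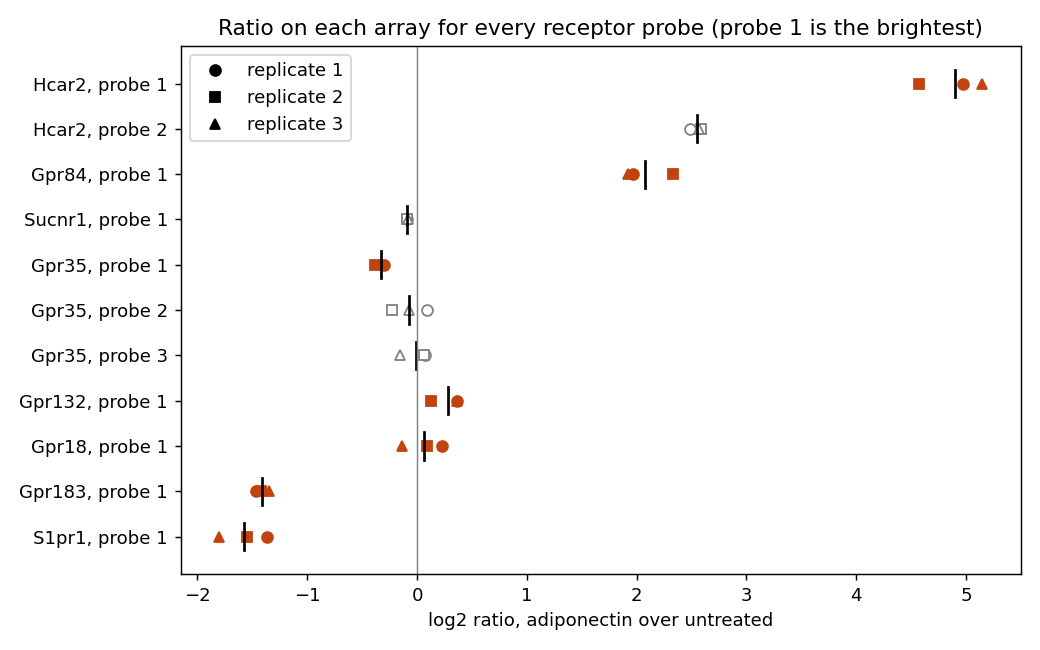
Log2 ratio of adiponectin over untreated (horizontal axis) on each of the 3 arrays for all 11 probes of the 8 receptor genes. Symbols are replicates, black bars the mean over arrays, filled symbols the probe that stands for its gene and open symbols other probes; the brightest Hcar2 probe lies at 4.57 to 5.15 and the dimmer one at 2.48 to 2.58.

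The tested genes nearest to Hcar2, by Euclidean distance over the 3 array ratios, were Ccr7 (distance 0.40), which encodes a chemokine receptor, Saa2 (0.41), which encodes an acute phase protein, and Dusp2 (0.43), which encodes a phosphatase of MAP kinases. The nearest to S1pr1 were Asap1 (0.044), Gpatch4 (0.082) and Galnt2 (0.10). With 3 arrays of 1 contrast, this likeness mainly ranks genes by a like mean ratio.

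RefSeq promoter windows in build GRCm38.p6 matched 6 of the 8 genes, and Hcar2 and S1pr1 were not among them. The 250 bases before the start are shown for 4 genes, as the receptor genes with a window whose levels were most raised (Gpr84) and most lowered (Gpr183), the bright gene that differed little (Gpr132) and the neighbour of Gpr183 (Gpr18). Capitals mark matches, on either strand, to any of the motifs searched.
Gpr84 (chr15:103310439-103310688, strand -): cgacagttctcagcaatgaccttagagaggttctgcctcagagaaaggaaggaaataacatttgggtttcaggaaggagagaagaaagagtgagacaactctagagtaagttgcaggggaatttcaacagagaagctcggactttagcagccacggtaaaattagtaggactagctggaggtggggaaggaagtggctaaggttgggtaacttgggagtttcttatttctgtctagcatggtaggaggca
Gpr132 (chr12:112860917-112861166, strand -): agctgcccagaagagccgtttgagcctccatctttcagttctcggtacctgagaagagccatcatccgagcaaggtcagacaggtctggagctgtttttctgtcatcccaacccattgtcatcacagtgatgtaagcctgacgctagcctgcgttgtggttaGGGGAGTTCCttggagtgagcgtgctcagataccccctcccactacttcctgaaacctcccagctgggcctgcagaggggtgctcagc
Gpr18 (chr14:121915889-121916138, strand -): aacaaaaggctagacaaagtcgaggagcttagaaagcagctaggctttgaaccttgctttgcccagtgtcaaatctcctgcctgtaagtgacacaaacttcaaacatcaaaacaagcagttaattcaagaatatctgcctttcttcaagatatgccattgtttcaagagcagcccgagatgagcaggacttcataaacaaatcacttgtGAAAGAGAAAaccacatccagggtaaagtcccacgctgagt
Gpr183 (chr14:121965194-121965443, strand -): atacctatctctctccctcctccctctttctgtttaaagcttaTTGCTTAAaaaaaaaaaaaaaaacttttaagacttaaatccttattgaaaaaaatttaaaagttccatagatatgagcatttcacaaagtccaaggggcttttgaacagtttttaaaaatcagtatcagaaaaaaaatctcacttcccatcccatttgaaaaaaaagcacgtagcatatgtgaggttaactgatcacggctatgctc
The motifs searched were kB (GGG, any 5 bases, then CC, a loose form of the NF-kB site, in 45.8% of 32851 windows of the same length), AP-1 (TGANTCA, 6.75%), C/EBP (TTGCNNAA, 9.56%), PU.1 (GAGGAAGT, 2.44%), the interferon response element (GAAA, any 2 bases, then GAAA, 2.98%), the cyclic AMP response element (TGACGTCA, 1.55%) and KLF (GGGTGNGG, 14.9%). The Gpr84 window held none of these letters. The Gpr132 window held a kB match (GGGGAGTTCC) at 88 to 79 bases before the start, the Gpr18 window an interferon response element match (GAAAGAGAAA) at 41 to 32 bases and the Gpr183 window a C/EBP match (TTGCTTAA) at 207 to 200 bases. These are matches of letters only.

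Other receptors for metabolites, lipids and protons moved both ways. Of 31 such genes on the array, 17 were measured, of which 6 rose and 5 fell, where 24.5% of all tested genes were called higher and 46.1% lower. Their median ratio was 0.14, against -0.17 over all tested genes. After centring on the tested genes 10 rose and 5 fell. With a requirement of all 6 readings above background, 5 rose and 2 fell. Gpr65, a proton-sensing receptor, was at 8.69, 8.51 and 8.54 in treated samples, against 11.57, 11.52 and 11.50 in untreated samples. It fell by 2.95 ± 0.081 (log2, moderated SE, 3 arrays, limma adjusted p = 4.65e-08), or 7.72-fold. Lpar6, a lysophosphatidic acid receptor, fell by 2.75 ± 0.098 on the log2 scale (limma adjusted p = 1.48e-07), and Lpar5 by 0.84 ± 0.094 (6.09e-05). Lpar5 had 2 of 3 treated readings above background, and its ratio was -1.53 at offset 0 and -2.07 by the scanner's log ratio. Gpr34, a lysophosphatidylserine receptor, was well above background in no treated and in all untreated samples. As processed here it was at least 1.50-fold lower (limma adjusted p = 0.000159). Its ratio was -0.68, with -2.33 at offset 0 and -0.51 after centring on the tested genes. Gpr31b, an eicosanoid receptor, rose by 0.66 ± 0.11 (limma adjusted p = 0.000893), with 1.19 at offset 0 and 0.24 under median centring. Ptafr, the receptor of platelet-activating factor, rose by 0.52 ± 0.091 (limma adjusted p = 0.000893) but was at -0.66 under median centring. The cannabinoid receptor gene Cnr2 rose by 0.40 ± 0.084 (limma adjusted p = 0.00268) and was at -0.80 under median centring. Of the sphingosine 1-phosphate receptors beside S1pr1, S1pr2 (0.14 ± 0.083, limma adjusted p = 0.155, or 0.31 and past the threshold after centring on the tested genes) and S1pr3 (0.16 ± 0.082, 0.110) did not pass, and S1pr4 and S1pr5 were not measured. Hcar1, the gene of the lactate receptor, was not measured.

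Genes that make, break down or carry the ligands moved both ways. Of 44 on the array, 33 were measured, of which 9 rose and 19 fell, where 24.5% of all tested genes were called higher and 46.1% lower. Their median ratio was -0.37, against -0.17 over all tested genes, and after centring on the tested genes 11 were called higher and 15 lower. For the sphingosine 1-phosphate ligand of S1pr1, 5 of 10 measured genes rose and 4 fell. Sphk1, a kinase that makes it, was at 9.32, 9.36 and 9.35 in treated samples, against 7.37, 7.50 and 7.25 in untreated samples. It rose by 1.97 ± 0.086 (limma adjusted p = 3.81e-07), a dimmer probe gave 0.90, and median centring gave 1.04. Plpp1, a phosphatase of lipid phosphates, rose by 3.00 ± 0.11 (limma adjusted p = 1.57e-07), with 1.19 from its dimmer probe and 1.89 under median centring. Its relative Plpp3 rose by 1.12 ± 0.14 (limma adjusted p = 0.000112), though it was at -0.02 under median centring, while Plpp2 fell by 1.52 ± 0.094 on the log2 scale (2.11e-06). Mfsd2b, an exporter of sphingosine 1-phosphate known from red blood cells and platelets, rose by 0.94 ± 0.091 (limma adjusted p = 2.76e-05) and was at -0.06 under median centring. Its probe read 16.52, 16.39 and 16.55 in treated samples, against 15.76, 15.40 and 15.49 in untreated samples. No other probe of this gene was measured, and which transcript the probe detects was not tested. Sgpl1, the lyase that degrades sphingosine 1-phosphate, was at 0.07 ± 0.099 and did not pass (limma adjusted p = 0.530). Spns2, another exporter, was not measured.

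For the oxysterol ligand of Gpr183, 1 of 3 measured genes rose and 1 fell, where 24.5% of all tested genes were called higher and 46.1% lower. Ch25h, which hydroxylates cholesterol in the first step of its synthesis, was at 8.58, 8.75 and 8.52 in treated samples, against 8.23, 8.03 and 8.02 in untreated samples. It rose by 0.52 ± 0.095 (limma adjusted p = 0.00122) but was at -0.41 under median centring. Hsd3b7, which inactivates the ligand, was at 0.21 ± 0.10 and did not pass (limma adjusted p = 0.0934), though it passed without replicate 2 (0.31), after centring on the tested genes (0.38) and with array weights (0.28). Cyp7b1, the second enzyme of the synthesis, was not measured. The receptor Gpr183 was lower and Ch25h higher in the same 3 treated samples.

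For succinate, the ligand of Sucnr1, 6 of 7 measured genes fell and 1 rose, where 46.1% of all tested genes were called lower. All 4 succinate dehydrogenase subunits were among those that fell, with ratios between -1.02 (Sdha) and -0.33 (Sdhb), as were Suclg1 (-1.07) and Suclg2 (-1.05) of succinyl-CoA ligase. The fall of Sdhb was uneven, at -0.39, -0.05 and -0.54 on replicates 1, 2 and 3 (limma adjusted p = 0.0233). Values of single succinate genes after centring on the tested genes are not given here. The mitochondrial dicarboxylate carrier gene Slc25a10 rose by 0.41 ± 0.088 (limma adjusted p = 0.00284). For medium-chain fatty acids, the ligands of Gpr84, the dehydrogenase gene Acadm that oxidises them fell by 1.73 ± 0.091 on the log2 scale (limma adjusted p = 8.98e-07). For the ketone body ligand of Hcar2, the dehydrogenase gene Bdh2 rose by 0.88 ± 0.14 (limma adjusted p = 0.000647). That rise was uneven, at 0.69, 1.37 and 0.58 on replicates 1, 2 and 3. Bdh1 fell by 0.37 ± 0.11 on the log2 scale (limma adjusted p = 0.0131), with 0.03 from another probe. For kynurenic acid, a proposed ligand of Gpr35, 3 of 5 measured genes fell, led by the aminotransferase gene Kyat1 (-1.30 ± 0.085, limma adjusted p = 2.84e-06). The lipoxygenase gene Alox5 fell by 1.82 ± 0.080 on the log2 scale (limma adjusted p = 3.78e-07), with 2 of 3 treated readings above background and a ratio of -2.90 at offset 0.

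**Figure D3:**
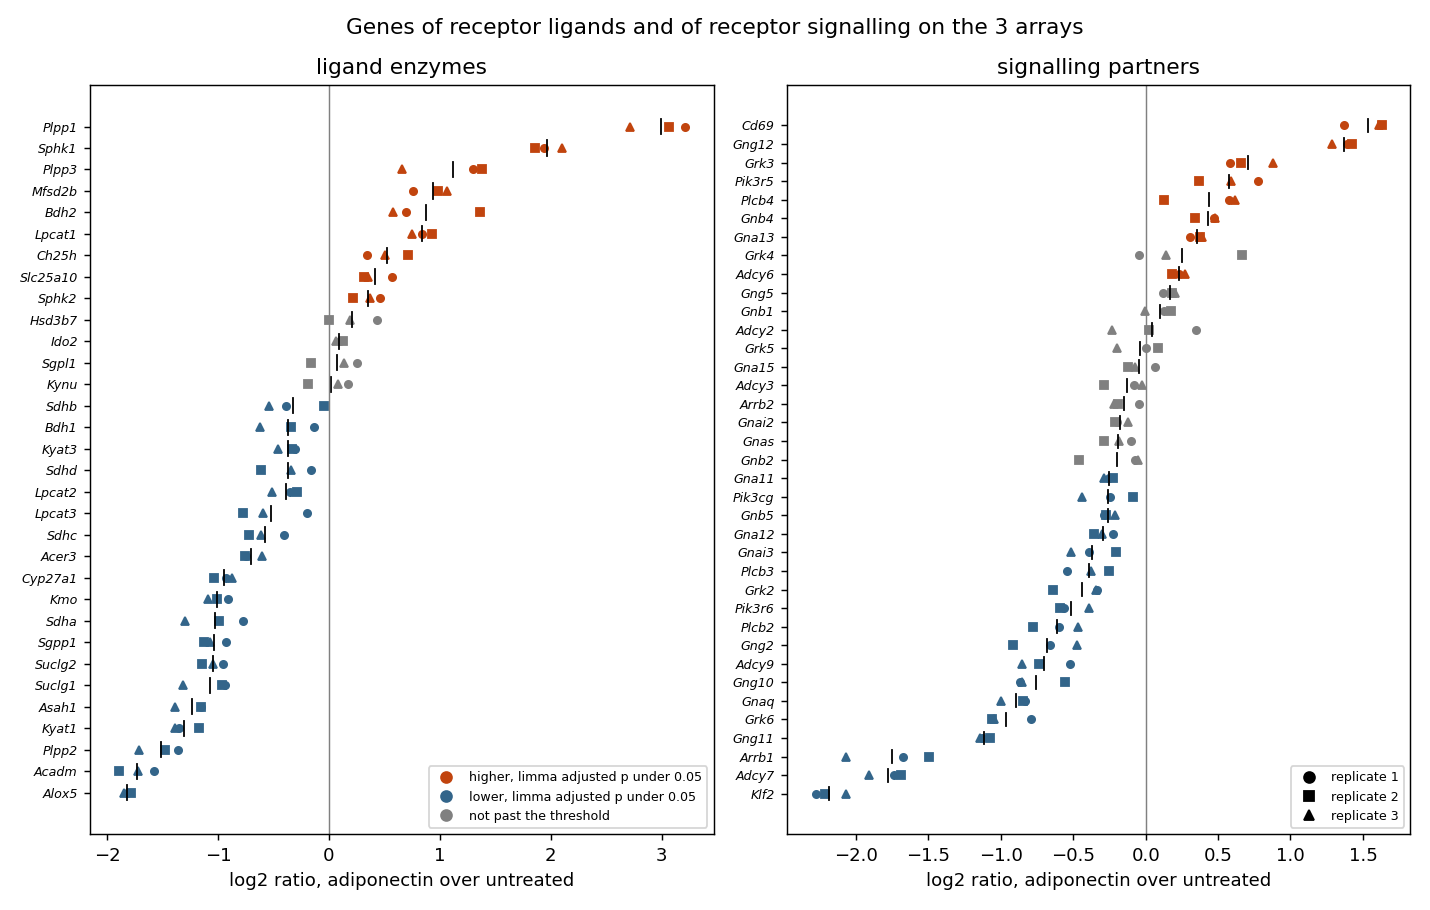
Log2 ratio of adiponectin over untreated (horizontal axis) on each array for 32 of the 33 measured ligand genes (left) and 37 measured signalling genes (right), sorted by mean. Symbols are replicates, black bars the means, and colours the limma call; Plpp1 and Sphk1 head the left panel at 3.00 and 1.97, and Klf2 ends the right one at -2.19.

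Of 45 genes of receptor signalling, 37 were measured, of which 8 rose and 18 fell, close to the 24.5% called higher and 46.1% called lower among all tested genes. Their median ratio was -0.19, against -0.17 over all tested genes, and after centring on the tested genes 11 were called higher and 13 lower. Klf2, a transcription factor that drives S1pr1 expression in T cells, was at 8.40, 8.53 and 8.79 in treated samples, against 10.68, 10.74 and 10.85 in untreated samples. It fell by 2.19 ± 0.085 on the log2 scale (limma adjusted p = 2.22e-07). Cd69, whose product binds S1pr1 protein and removes it from the surface of lymphocytes, was at 12.23, 12.32 and 12.16 in treated samples, against 10.86, 10.68 and 10.55 in untreated samples. It rose by 1.54 ± 0.090 (limma adjusted p = 1.53e-06), or 2.90-fold, but was at 0.37 under median centring (limma adjusted p = 0.655). In both genes the 3 treated samples lay apart from the 3 untreated ones, as they did in S1pr1. Among all tested genes, 26.8% had all treated levels above the untreated ones and 48.8% had all below. A link between these 3 genes was not tested.

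Of the inhibitory G-protein subunits, Gnai3 fell by 0.37 ± 0.091 on the log2 scale (limma adjusted p = 0.00583), a call lost after centring on the tested genes (-0.20) and at offset 0 (-0.29), and Gnai2 was at -0.18 ± 0.080 and did not pass (0.0786). Adcy7, an adenylyl cyclase, fell by 1.78 ± 0.086 on the log2 scale (limma adjusted p = 5.97e-07). Arrb1, an arrestin that ends receptor signalling and aids internalisation, fell by 1.75 ± 0.12 on the log2 scale (limma adjusted p = 2.97e-06), while Arrb2 was at -0.15 ± 0.083 and did not pass (0.138). The receptor kinase gene Grk2 fell by 0.44 ± 0.093 on the log2 scale (limma adjusted p = 0.00269). Its relative Grk3 rose by 0.70 ± 0.090 (limma adjusted p = 0.000142) and was at -0.16 under median centring. The gamma subunit gene Gng11 fell by 1.11 ± 0.080 on the log2 scale (limma adjusted p = 4.73e-06), and Gng12 rose by 1.37 ± 0.082 (1.77e-06), with -0.52 from another probe and 0.23 under median centring. Pik3r5, a regulatory subunit of PI3K gamma, rose by 0.58 ± 0.098 (limma adjusted p = 0.000784) and was at -0.54 under median centring. Median centring gave ratios of -3.33 for Klf2, -2.92 for Acadm and -1.52 for Gnai3, none of which passed the threshold.

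**Figure D4:**
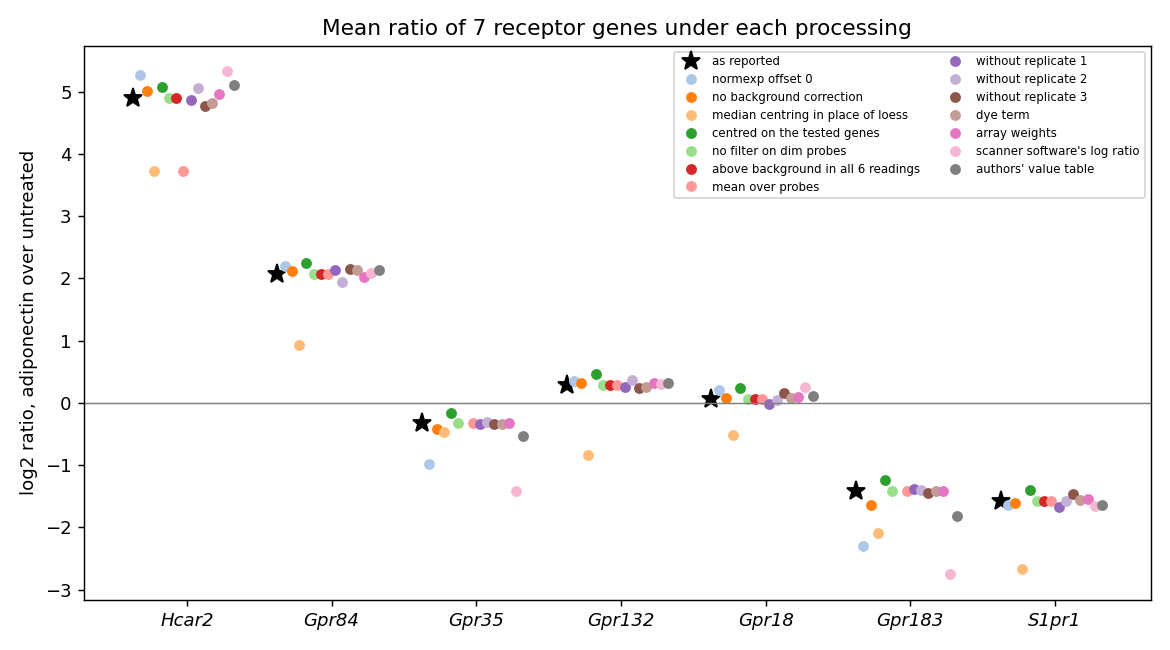
Mean log2 ratio of adiponectin over untreated (vertical axis) for the 7 measured receptor genes as reported (star) and under each other processing (dots). Gpr183 ranges from -2.76 to -1.24 and Gpr35 from -1.41 to -0.16, while the dots of Gpr132 and Gpr18 reach both sides of 0.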

How the data were processed

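Per the file headers, the arrays were quantified with Agilent Feature Extraction 10.7.3.1, and the design was placed on mm9. The deposited intensity columns hold median spot and local background brightness per dye, without normalization. The scanner software had subtracted background from, and normalized the dyes of, the deposited processed intensities and the log10 ratio of Cy5 over Cy3, per the file headers. The authors' own log2 values came in another deposited table, by a method not given in the sources used here; its columns correlated at r = 0.994, 0.990 and 0.992 with loess ratios turned to treated over untreated, which sets its direction, while its background handling stays unknown (medians -0.0024, -0.0097 and -0.0058). The labels give the dose once in mg/ml and otherwise in µg/ml, which was used.

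Median signals were corrected with normexp (offset 50) and normalized by loess (limma 3.58.1, R 4.3.3), where control spots had weight 0. Spots flagged as outliers were left out (323, 303 and 299 on replicates 1, 2 and 3). Levels per channel were further scaled with Aquantile. Of 55681 probes, 27235 had 1 symbol through RefSeq (GRCm38.p6, used for names), and the brightest probe that passed the filter stood for a gene. The 3 ratios were tested against 0 with lmFit and eBayes, with Benjamini-Hochberg adjustment over 13179 genes and a threshold of 0.05; the code was tested on simulated data. At least N-fold values set the bright group's mean against, per array, the higher of the dim reading and the lowest signal well above background, and such values and channel levels are open to dye bias since dyes were not balanced. The number of arrays limits precision. The members, the gene lists and the rule for named genes (all members, and in each list the 4 called genes with the largest rise and fall plus preset ligand and partner genes) were chosen with earlier results of these data known. S1pr3, S1pr5, Bdh1, Bdh2, Cd14, Cd3e, Lck, Cd4, Cd5, Siglech, Zbtb46, Kdr, Cd79b, Tpsb2 and the succinate genes lie outside that rule and were named after their values were seen. Some genes that the rule names are not reported here.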

Additional observations from a re-analysis of the deposited data

How the results depend on the processing

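The values were recomputed with a normexp offset of 0, no background correction, median centring, centring on the tested genes, other filters on dim probes, the mean over probes, each array left out, a dye term, array weights, the scanner software's log ratio and the authors' table. Under median centring, limma called 0 genes higher and 0 lower (216 and 5098 at an unadjusted p under 0.05). It then called 0 of the other receptors in either direction (0 higher and 4 lower unadjusted), 0 of the ligand genes (1 and 14) and 0 of the signalling genes (0 and 13), and the median of the tested genes was -1.03. Signs turned under it for Gpr132 (-0.85), Gpr18 (-0.51), Ptafr (-0.66), Cnr2 (-0.80), Plpp3 (-0.016), Mfsd2b (-0.060), Grk3 (-0.16), Pik3r5 (-0.54), Ch25h (-0.41), Hsd3b7 (-0.91), Sgpl1 (-0.99) and S1pr2 (-1.002). The cause was not tested. With 1 replicate left out, Gpr18 ranged from -0.019 (without replicate 1) to 0.16 and Sgpl1 from -0.014 (without replicate 1) to 0.19. Arrb2 was at 0.020 with centring on the tested genes. Other receptors called higher numbered 10 with centring on the tested genes, and those called lower numbered 2 when all 6 readings had to be above background, a filter that leaves 12 of these receptors and drops Gpr183 and Gpr35. The other 102 counts stayed within 1.5 times. Hcar2, Gpr84, Gpr35, Gpr183 and S1pr1 kept their direction under every alternative that measured them, all of which used these same arrays. For Gpr35 the mean over probes repeated the main value of -0.33, as its other probes did not pass the filter. Signal near background limits the sizes given for Gpr35 and Gpr183. The main test is itself paired, since each ratio sets a treated against an untreated RNA of the same array, so no further replicate block was fitted.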

Other observations

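Some genes of receptor signalling had probes that disagreed by far more than the spread between arrays. The brightest probe of Gna13, the G-protein subunit that couples sphingosine 1-phosphate and lysophosphatidic acid receptors to the cytoskeleton, gave a log2 ratio of 0.36 ± 0.080 (moderated SE, n = 3), whereas its other probes gave 4.92 and 0.98. The brightest probe of Gnb1, a beta subunit, gave 0.10 and the other -0.67. These genes were chosen after their values were seen, and which transcripts the probes detect was not tested.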
